A study of Mus musculus with 30 samples.

Results

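The RNA exosome is a multi-subunit complex that degrades RNA from its 3′ end. Its core of EXOSC1 to EXOSC9 has no catalytic activity in mammals and threads RNA towards a ribonuclease. DIS3 is the main nuclear exoribonuclease of the complex and is also an endonuclease, EXOSC10 is a 3′ exoribonuclease enriched in the nucleolus, DIS3L takes the place of DIS3 on the cytoplasmic exosome, and DIS3L2 works without the exosome on RNAs that carry a uridine tail. The 4 genes that encode them, *Dis3*, *Dis3l*, *Dis3l2* and *Exosc10*, were taken by name from the 55487 genes counted in single mouse embryos, and the question was whether the other 3 genes differ in level between embryos that have and embryos that lack *Dis3*.

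The embryos came from matings of *Dis3* het females, treated with PMSG and hCG to induce ovulation, with *Dis3* het males. Of the 30 samples in all, 23 are libraries of poly(A) RNA from 1 embryo each, and 7 are chromatin samples of embryonic stem cells (mESCs) that were used only for context. At E2.5, 6 embryos were wild-type, 2 het and 4 null, and at E2.75, 3 were wild-type, 5 het and 3 null, with each genotype read from the embryo's own genomic DNA. Embryos of all genotypes had a het mother, so that null embryos could inherit *Dis3* mRNA from the oocyte, and het and wild-type controls shared that mother's genotype. The labels do not tie embryos to litters, and a p-value measures only the spread between these embryos.

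The null allele was made by Cas9 with a pair of guides in introns of *Dis3*, which lies on the minus strand of chromosome 14 (99075206 to 99099770, GRCm38). The guides are shown because they decide which part of the gene the counts can see. Their protospacers are written 5′ to 3′ with the PAM in capitals. The left guide lies in intron 2 at chr14:99098426-99098445 and the right guide in intron 5 at chr14:99094263-99094282, both on the minus strand.

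left guide: gagttgaatggttgattcttTGG
right guide: cctccctggtctcgtttgttCGG

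The 4163 bases between the cuts hold exons 3, 4 and 5 of the 21 exons of the main transcript, which are 436 of its 5150 exonic bases (8.47%). The remaining 18 exons, with 91.5% of the exonic bases, are kept on the null allele. A count of *Dis3* in a null embryo can thus come from transcripts of the deleted allele or from inherited maternal mRNA, and the 2 sources cannot be told apart in a count per gene.

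*Dis3* was measured first, as the check of the genotype labels. Levels are given as CPM, the count of a gene scaled to a common library size with TMM normalization. At E2.5, *Dis3* was at 147, 134, 109, 63.6, 40.2 and 18.0 CPM in wild-type replicates 1 to 6, at 58.2 and 59.2 CPM in the het embryos and at 16.01, 2.55, 0 and 14.3 CPM in the null embryos. At E2.75, it was at 112, 64.4 and 107 CPM in wild-type embryos, at 42.3, 30.4, 49.6, 43.8 and 36.7 CPM in het embryos, and at 12.8, 21.5 and 10.1 CPM in null embryos. All 7 null embryos were below all 7 het embryos, and 8 of 9 wild-type embryos were above all null embryos. Counts of 0 allow up to 3 counts, which is 0.916 CPM in the null embryo at 0.

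The exception was wild-type replicate 6 of E2.5, at 18.0 CPM. Its *Dis3* level goes against its label, since it lies inside the null range of 0 to 21.5 CPM over both stages. It lay above the 4 null embryos of its own stage, which reached 16.01 CPM. It is referred to as the library labelled E2.5 WT replicate 6. It had 11180064 counts on genes. Reads not wholly within annotated exons made up 22.9% of its reads, against 32.3% to 43.9% in the null embryos. These shares leave out spike-in, unaligned and multiply aligned reads. Of 492 other genes that were higher in null than in het embryos, 23% were nearer to the null mean in this library, where the other 8 wild-type libraries had 8.94% to 27.6%. Of 275 genes that were lower in null embryos, 34.9% were nearer to the null mean, with 22.2% to 47.6% in the others. By these genes it stood within the range of the wild-type embryos, and values without it are given beside the main comparisons with wild-type embryos.

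Over both stages, *Dis3* fell from 45.8 ± 10.7 CPM in het to 11.1 ± 7.57 CPM in null embryos (SD, n = 7 each), a log2 fold change of -2.06 ± 0.53 (SE) that edgeR's quasi-likelihood test gave an adjusted p of 0.0253 (Benjamini-Hochberg). Against wild-type embryos (88.2 ± 43.6 CPM, SD, n = 9), the log2 fold change was -3.01 ± 0.54 (SE, edgeR adjusted p = 0.000943), and -3.14 (edgeR adjusted p = 0.000619) without the library labelled E2.5 WT replicate 6. A gene was called where its adjusted p was under 0.1 and its log2 fold change was beyond 1 in either direction. By stage, *Dis3* was called in null against wild-type embryos at E2.5 (log2 fold change -3.38, edgeR adjusted p = 0.0929) and at E2.75 (-2.73, edgeR adjusted p = 0.00517), and in null against het embryos at E2.75 (-1.51, edgeR adjusted p = 0.0394). The call at E2.5 lay close to the threshold. It was lost in 11 of 12 cases with 1 embryo left out (edgeR adjusted p up to 0.199), with ERCC scaling, with only the 2 groups fitted and with the replicate number as a block, and without the library labelled E2.5 WT replicate 6 it was kept (-3.59, edgeR adjusted p = 0.0814). That in null against het embryos at E2.75 was lost with the block (edgeR adjusted p = 0.287), without the shallowest libraries (0.143) and without null replicate 1 (0.104) or 3 (0.165) of that stage. The 2 het embryos at E2.5 gave -2.88 with an edgeR adjusted p of 0.514, in a comparison with 2 calls among all genes.

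Het embryos had intermediate *Dis3* levels. All 5 het embryos at E2.75 were below all 3 wild-type embryos, while at E2.5 both het embryos lay between the wild-type values. The log2 fold change of het against wild-type embryos was -0.94 ± 0.49 (SE, edgeR adjusted p = 0.711), and -1.08 (edgeR adjusted p = 0.791) without the library labelled E2.5 WT replicate 6. The exact permutation test over embryos, run on log2(CPM + 1), gave a difference of -0.74 (p = 0.0735), and -0.99 (p = 0.00513) without that library. No gene passed in this comparison (0 of 13415 genes tested, 0%), although 934 had an unadjusted p under 0.05 and DESeq2 called 65.

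*Dis3l*, the cytoplasmic paralogue, went the opposite way to *Dis3*. It was higher in null embryos than in het embryos, with a mean of 20.7 ± 18.2 CPM against 3.14 ± 1.98 CPM (SD, n = 7 each), and 6 of the 7 null embryos were above all 7 het embryos. At E2.5 the null embryos had 55.4, 31.8, 22.9 and 15.0 CPM, the het embryos 4.42 and 2.13 CPM, and wild-type replicates 1 to 5 had 2.696, 1.31, 1.65, 0.556 and 4.83 CPM. The library labelled E2.5 WT replicate 6, the one with *Dis3* inside the null range over both stages, had 37.2 CPM from 383 counts. At E2.75 the null embryos had 3.45, 6.15 and 9.97 CPM, the het embryos 1.62, 6.03, 4.73, 2.66 and 0.422 CPM, and the wild-type embryos 2.93, 1.23 and 0.811 CPM. At E2.5 the 4 null embryos were thus above all het embryos and above all wild-type embryos but the one labelled replicate 6. At E2.75 the 3 null embryos were above the wild-type embryos and overlapped the het embryos.

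**Figure D1:**
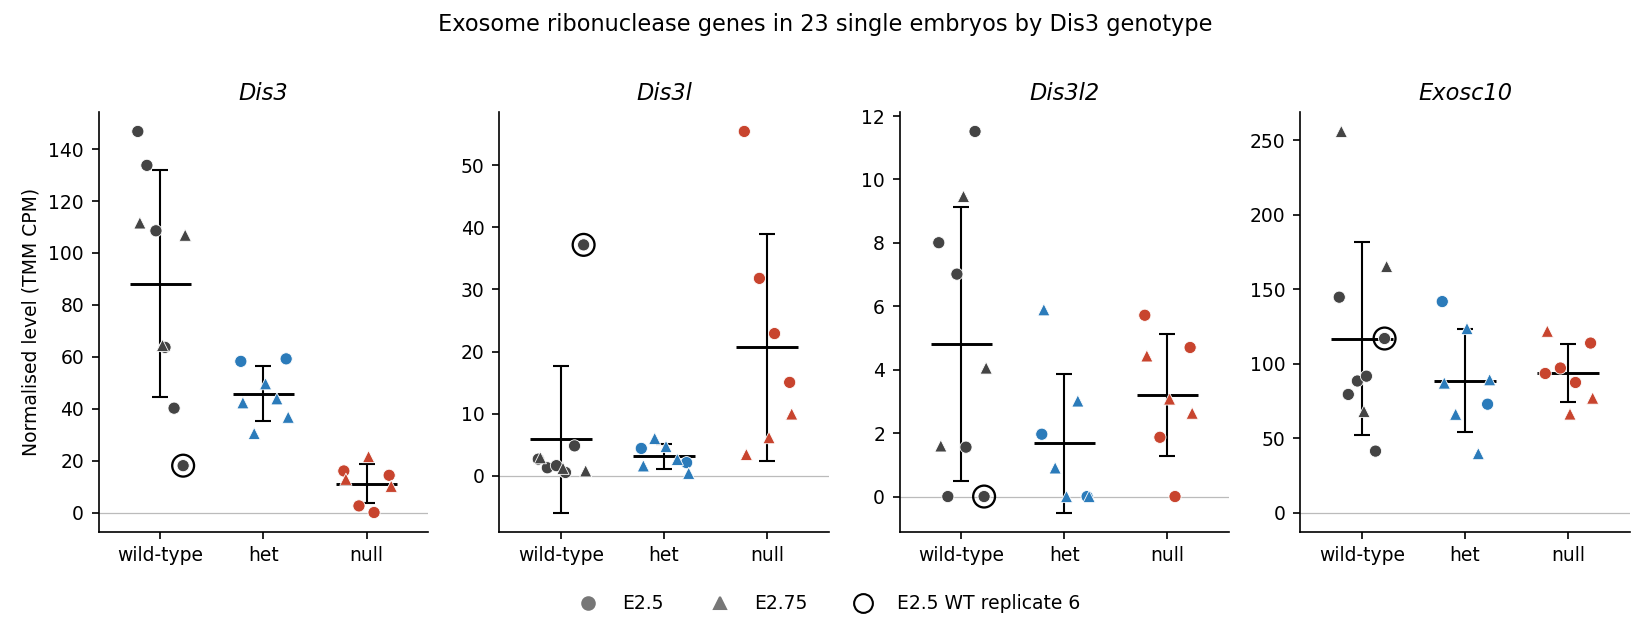
Normalised level (TMM CPM) of each gene in 23 embryos by genotype, with circles for E2.5 and triangles for E2.75, and horizontal and vertical bars for the mean ± SD over 9 wild-type, 7 het and 7 null embryos; each panel has its own linear axis. The ringed embryo, labelled E2.5 WT replicate 6, has *Dis3* in the null range over both stages (18.0 CPM), above the E2.5 null embryos, and *Dis3l* at 37.2 CPM. *Exosc10* overlaps between the 3 genotypes.

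In null against het embryos, *Dis3l* passed both thresholds, with a log2 fold change of 2.73 ± 0.89 (SE, edgeR adjusted p = 0.0840). The background of this comparison was 769 called genes of 13415 tested (5.73%), and of the 4 ribonuclease genes, *Dis3* and *Dis3l* were called. The stages were not balanced between these groups, with 4 of the 7 null and 2 of the 7 het embryos at E2.5. With stage as a covariate the log2 fold change was 1.73 and the call was lost (edgeR adjusted p = 0.314), and with scaling by the ERCC spike-ins it was 1.37 and was also lost (edgeR adjusted p = 0.192), on a scale where the median of all genes was at -1.08. The exact permutation test over the 14 embryos gave a difference of 2.10 on log2(CPM + 1) with p = 0.00350, and with embryos permuted only within their stage the difference was 1.75 with p = 0.00595. Leaving out 1 embryo at a time, the edgeR adjusted p ran from 0.0234 to 0.185, with the highest value without E2.5 null replicate 1, the embryo with the highest level.

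In null against wild-type embryos, whether *Dis3l* was called rested on 1 library. With all 9 wild-type embryos (5.91 ± 11.8 CPM, SD), the log2 fold change was 1.80 ± 0.78 (SE) and *Dis3l* was not called (edgeR adjusted p = 0.253). Without the library labelled E2.5 WT replicate 6, the wild-type mean was 2.00 ± 1.42 CPM (SD, n = 8), the log2 fold change was 3.37 ± 0.68 (SE) and the edgeR adjusted p was 0.00374. The exact permutation test gave differences of 2.10 (p = 0.0101) with and 2.53 (p = 0.000311) without it. That library was set apart by its *Dis3* level, but it also had the highest *Dis3l* level of the wild-type embryos. Leaving it out removes a value under test, so the lower p-values without it are no independent support. The same holds for every *Dis3l* value and ratio given without it. The background was 704 called genes of 13415 (5.25%), with *Dis3* as the 1 called gene of the 4 when all embryos were used, and 651 of 13293 (4.9%) without that library, with *Dis3* and *Dis3l* called. All 7 null embryos were above the wild-type median of 1.65 CPM.

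Within E2.5, *Dis3l* in null against wild-type embryos had a log2 fold change of 1.91 (edgeR adjusted p = 0.377), which became 3.80 (edgeR adjusted p = 0.0460) without the library labelled E2.5 WT replicate 6. Against the 2 het embryos of this stage it was 3.18 (edgeR adjusted p = 0.543). Within E2.75 it was 1.95 against wild-type (edgeR adjusted p = 0.412) and 1.05 against het embryos (edgeR adjusted p = 0.661), where the 3 null libraries held 7, 12 and 72 counts of the gene and so gave little precision. The background within stages was 1.82% of 15904 genes in null against wild-type (1.24% without the library labelled E2.5 WT replicate 6) and 0.0126% in null against het embryos at E2.5, and 4.54% and 4.82% of 14442 genes at E2.75. With all embryos, *Dis3* was called in 3 of those 4 comparisons, and none of the other ribonuclease genes was called.

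Whether the *Dis3l* difference between null and other embryos changed with stage was not resolved. Each E2.5 null embryo had a higher *Dis3l* level than each E2.75 null embryo, a difference that was not tested. The difference between the stages in its null against het fold change was -2.13 ± 1.69 (SE, edgeR adjusted p = 0.869), and in its null against wild-type fold change 0.05 ± 1.27 (SE, edgeR adjusted p = 1.00), which was -1.80 (edgeR adjusted p = 0.608) without the library labelled E2.5 WT replicate 6. Neither interaction called any of 18677 genes (0% in both), with 1234 and 2046 genes at an unadjusted p under 0.05 and 81 and 344 genes called by DESeq2. In wild-type embryos alone, 1378 of 18677 genes (7.38%) were called between E2.75 and E2.5. None of the 4 ribonuclease genes was among them, with log2 fold changes of 0.14 for *Dis3*, -2.31 for *Dis3l*, 0.11 for *Dis3l2* and 0.79 for *Exosc10* (edgeR adjusted p from 0.243 to 1.00). The value of *Dis3l* rested on 1 library, since it was -0.46 (edgeR adjusted p = 0.835) without the library labelled E2.5 WT replicate 6, where *Dis3* was at -0.068, *Dis3l2* at -0.15 and *Exosc10* at 0.86.

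**Figure D2:**
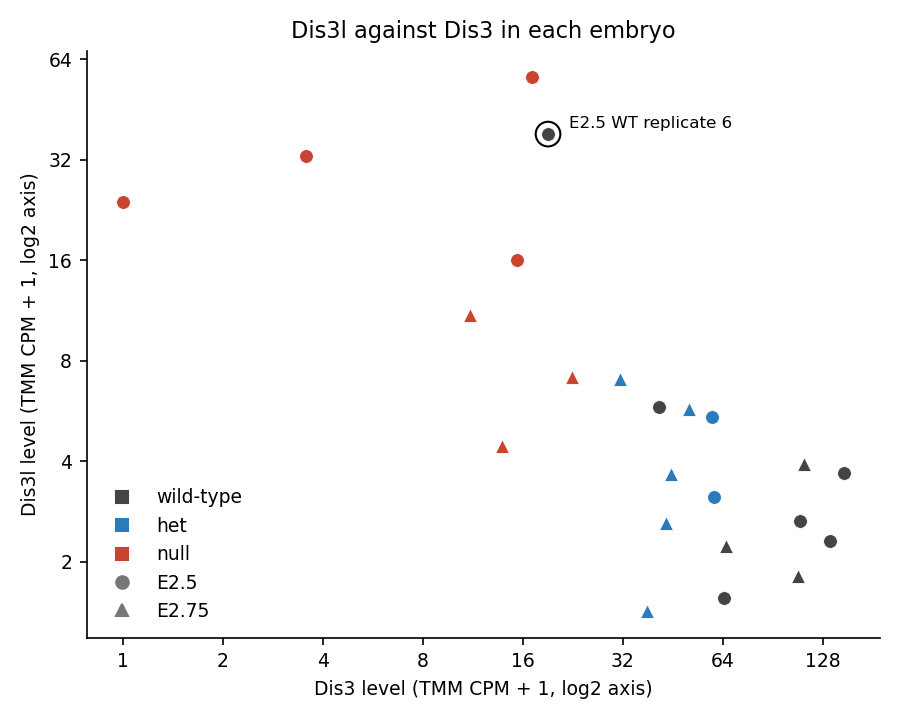
*Dis3l* against *Dis3* in each of the 23 embryos, both as TMM CPM + 1 on log2 axes, coloured by genotype and shaped by stage. The 7 null embryos and the ringed library labelled E2.5 WT replicate 6 have *Dis3* at 21.5 CPM or less, and the 5 highest *Dis3l* levels, from 15.0 to 55.4 CPM, are in E2.5 embryos of that group.

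Since both genes are counted in the same library, their ratio does not depend on the scaling between libraries. The ratio of *Dis3l* to *Dis3* counts (0.5 added to each) had a median of 0.0186 in wild-type, 0.0626 in het and 1.05 in null embryos, with ranges of 0.00806 to 2.06, 0.0129 to 0.202 and 0.283 to 151. The null and het ranges did not overlap, and the highest wild-type value was that of the library labelled E2.5 WT replicate 6. On the log2 scale the ratio differed by 5.46 between null and het embryos (exact permutation p = 0.000583, 0.00291 when adjusted over 30 tests of ratios, the smallest raw p that 7 against 7 embryos allow). This ratio moves with the deletion of *Dis3* itself. The ratio of *Dis3l* to *Exosc10* does not, and its log2 value was higher in null embryos by 2.39 against het (exact permutation p = 0.00583, adjusted 0.0160) and by 2.78 against wild-type embryos (exact permutation p = 0.00892, adjusted 0.0223). Relative to the summed counts of the 9 core subunit genes, *Dis3l* was higher in null embryos by 2.24 against het (exact permutation p = 0.00350, adjusted 0.0117) and by 2.57 against wild-type embryos (exact permutation p = 0.00586, adjusted 0.0160). Without the library labelled E2.5 WT replicate 6, the differences from wild-type embryos were 3.25 relative to *Exosc10* and 3.05 relative to the core (exact permutation p = 0.00124 and 0.000155, not adjusted).

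*Exosc10*, the gene of the other nuclear ribonuclease, showed no difference between genotypes beyond the spread of the embryos. Its level ranged from 41.2 to 256 CPM in wild-type (median 91.5), from 39.6 to 142 CPM in het (median 86.9) and from 66.2 to 122 CPM in null embryos (median 93.4), so that every null embryo lay within the range of both other genotypes. The log2 fold change was 0.08 against het (95% interval -0.54 to 0.70, as 1.96 SE, edgeR adjusted p = 0.930) and -0.32 against wild-type embryos (-0.91 to 0.27, edgeR adjusted p = 0.725), and -0.31 (-0.93 to 0.30) without the library labelled E2.5 WT replicate 6. These intervals leave out changes beyond 2-fold in either direction on the TMM scale. Within E2.75 the null against wild-type interval was wider, at -0.92 with -1.82 to -0.02 (edgeR adjusted p = 0.305), since the 3 wild-type embryos had 256, 67.9 and 165 CPM. This interval leaves out 0 although edgeR's unadjusted p was 0.0629, so intervals of 1.96 SE are narrower than the test's own. Relative to the summed core subunits, *Exosc10* differed by -0.15 on the log2 scale between null and het embryos (exact permutation p = 0.614).

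The direction of *Exosc10* depended on the scaling. With ERCC scaling its null against het log2 fold change was -1.11 (edgeR adjusted p = 0.0640) where the median gene was at -1.08, a difference from the median of -0.03. Against wild-type embryos it was -0.85, where the median gene was at -0.37. On this scale *Dis3l* was 2.45 above the median of all genes in null against het and 1.92 above it in null against wild-type embryos. Fewer cells and less RNA per cell cannot be told apart in these libraries of whole embryos.

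*Dis3l2*, the exosome-independent member, was measured with few reads. It had 0 counts in 6 of 23 embryos (2 wild-type, 3 het and 1 null), which allows up to 0.249 to 0.916 CPM in those libraries, and 112 counts at most. Its level was 0 to 11.5 CPM in wild-type (median 4.05), 0 to 5.89 CPM in het (median 0.904) and 0 to 5.72 CPM in null embryos (median 3.08), with full overlap. The log2 fold change was 0.92 against het, with a 95% interval from -1.47 to 3.31 (edgeR adjusted p = 0.761), and -0.58 against wild-type embryos, from -2.84 to 1.67 (edgeR adjusted p = 0.890). Without the library labelled E2.5 WT replicate 6 the latter was -0.75, from -2.92 to 1.42. These intervals hold changes of 2-fold in both directions.

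**Figure D3:**
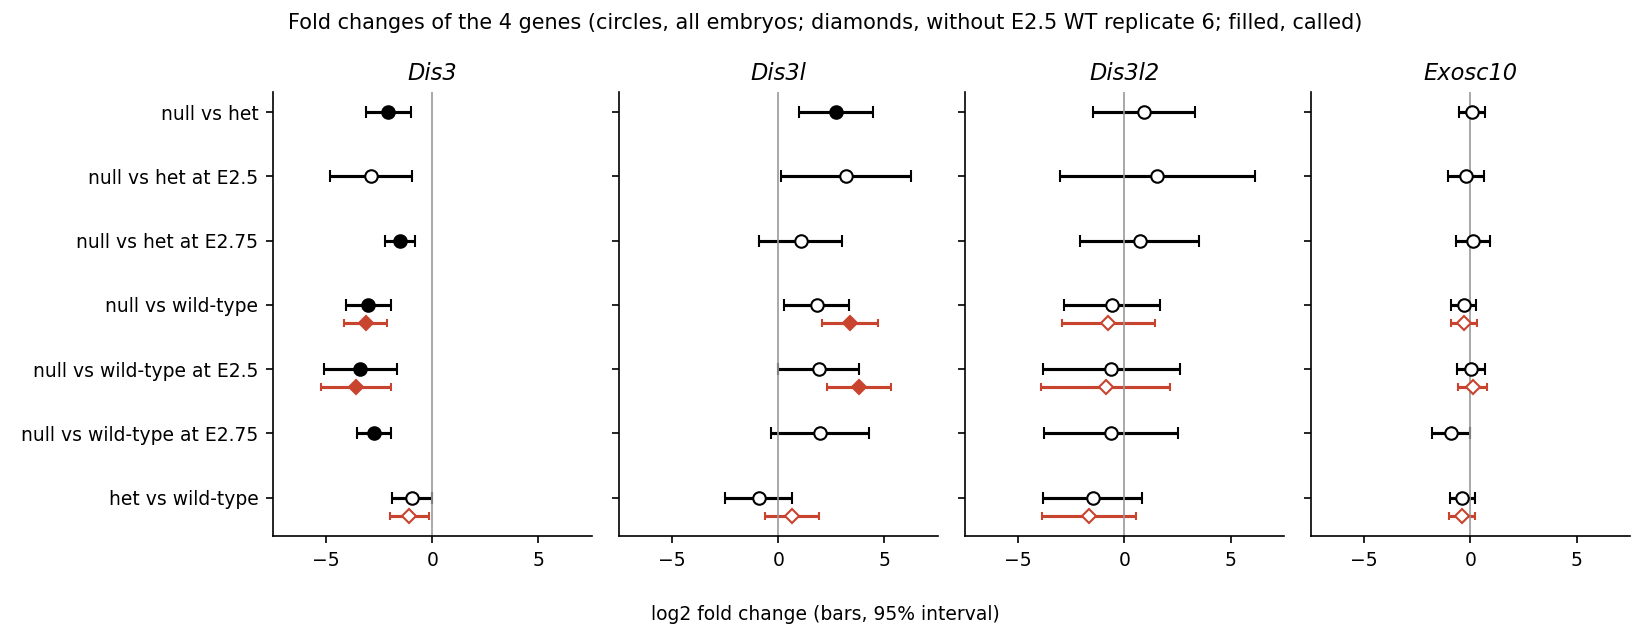
Log2 fold changes of the 4 genes in 7 comparisons, with bars for the 95% interval taken as 1.96 SE; black circles use all embryos, red diamonds leave out the library labelled E2.5 WT replicate 6, and filled symbols are called. *Dis3* is to the left of 0 throughout, and *Dis3l* in null against wild-type embryos moves from 1.80 to 3.37 without that library. *Exosc10* is farthest from 0 in null against wild-type embryos at E2.75 (-0.92), and its bars are wider within stages than with the stages combined.

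The order of the 4 genes was compared per length, as CPM per kilobase of merged exons (7.754 kb for *Dis3*, 5.458 kb for *Dis3l*, 8.901 kb for *Dis3l2* and 3.594 kb for *Exosc10*). In wild-type embryos the means were 32.5 CPM per kb for *Exosc10*, 11.4 for *Dis3*, 1.08 for *Dis3l* and 0.539 for *Dis3l2*. In an exact permutation of the signs of the log2 ratios within embryos, *Exosc10* was above *Dis3* in 9 of 9 embryos (p = 0.00391) and *Dis3* above *Dis3l* in 8 of 9 (p = 0.00781), while *Dis3l* and *Dis3l2* did not differ beyond their spread (*Dis3l* higher in 3 of 9, exact sign permutation p = 0.617). Without the library labelled E2.5 WT replicate 6, the wild-type means were 32.5, 12.5, 0.367 and 0.607 CPM per kb, so that *Dis3l* fell below *Dis3l2*, again without a difference beyond the spread (*Dis3l* higher in 2 of 8, exact sign permutation p = 0.773). Het embryos had 24.6 CPM per kb of *Exosc10*, 5.90 of *Dis3*, 0.576 of *Dis3l* and 0.189 of *Dis3l2*, with *Dis3l* above *Dis3l2* in 6 of 7 (exact sign permutation p = 0.0469). In null embryos *Exosc10* (26.1 CPM per kb) was followed by *Dis3l* (3.79), *Dis3* (1.43) and *Dis3l2* (0.360), where *Dis3l* was above *Dis3* in 5 of 7 embryos without a difference beyond the spread (exact sign permutation p = 0.219).

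Reads shared with neighbouring genes bear on one member. *Dis3* overlaps *Pibf1*, on the opposite strand, by 347 bases, of which 325 are exonic in both, and the counting did not use strand. *Pibf1* was at 57.1 ± 25.0 CPM in wild-type, 53.4 ± 16 in het and 73.7 ± 17.8 in null embryos (SD), with a log2 fold change of 0.46 in null against het embryos (edgeR adjusted p = 0.412), while *Dis3* fell. *Dis3l* overlaps no annotated gene. Its nearest neighbour is *Tipin*, 1331 bases away on the opposite strand, which had a log2 fold change of 0.10 in null against het embryos (edgeR adjusted p = 0.935), against 2.73 for *Dis3l*. *Dis3l2* overlaps 12 genes and *Exosc10* overlaps *Gm13204*, in each case with 0 exonic bases shared.

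The rest of the machinery was examined with 6 lists, 51 genes in all, of which 49 were tested. None of them was called in null against het embryos (0 of 49 in edgeR, background 5.73%), with a median log2 fold change of 0.10 beside 0.02 over all 13415 genes. In null against wild-type embryos 2 were called (4.08% of the 49, background 5.25%), 1 in each direction, with a median of 0.0037 beside -0.02. Without the library labelled E2.5 WT replicate 6, 1 of 49 was called (2.04%, background 4.9%), with a median of -0.089 beside -0.018. Of the 8 core subunits tested (*Exosc6* was not), 6 were positive in null against het embryos with log2 fold changes of the 8 from -0.47 to 0.56, and they ran from -0.29 to 0.19 against wild-type embryos. The 4 cofactors of the cytoplasmic exosome, which include the helicase gene *Skiv2l* and its partners *Ttc37* and *Wdr61*, ran from -0.83 to 0.52 and from -0.28 to 0.48, and none was called beside the higher *Dis3l*.

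The called genes were *Zfc3h1* and *Lin28b*. *Zfc3h1* encodes the zinc-finger scaffold of the connection that brings polyadenylated nuclear RNA to the exosome. Its level was 136 ± 39.5 CPM in null, 69.2 ± 19 in het and 64.9 ± 32.7 in wild-type embryos (SD), with log2 fold changes of 1.07 against wild-type (edgeR adjusted p = 0.0864) and 0.97 against het embryos (edgeR adjusted p = 0.153). *Lin28b*, from the list of uridylation factors and DIS3L2 partners, encodes an RNA-binding protein that binds let-7 precursors. It was lower in null embryos, at 15.4 ± 9.25 CPM against 40.7 ± 12.1 in wild-type and 31.9 ± 10.8 in het embryos (SD), with log2 fold changes of -1.39 (edgeR adjusted p = 0.0306) and -1.04 (edgeR adjusted p = 0.136). In the library labelled E2.5 WT replicate 6, *Zfc3h1* was at 6.31 CPM and *Lin28b* at 50.8 CPM, both away from the null levels. Without it, *Zfc3h1* was at 0.91 against wild-type embryos (edgeR adjusted p = 0.0563), short of the fold threshold and no longer called, and *Lin28b* was called at -1.34 (edgeR adjusted p = 0.0513). *Tut4*, which encodes a uridylating enzyme, had a log2 fold change of 0.94 in null against het embryos (edgeR adjusted p = 0.0700), short of the fold threshold.

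**Figure D4:**
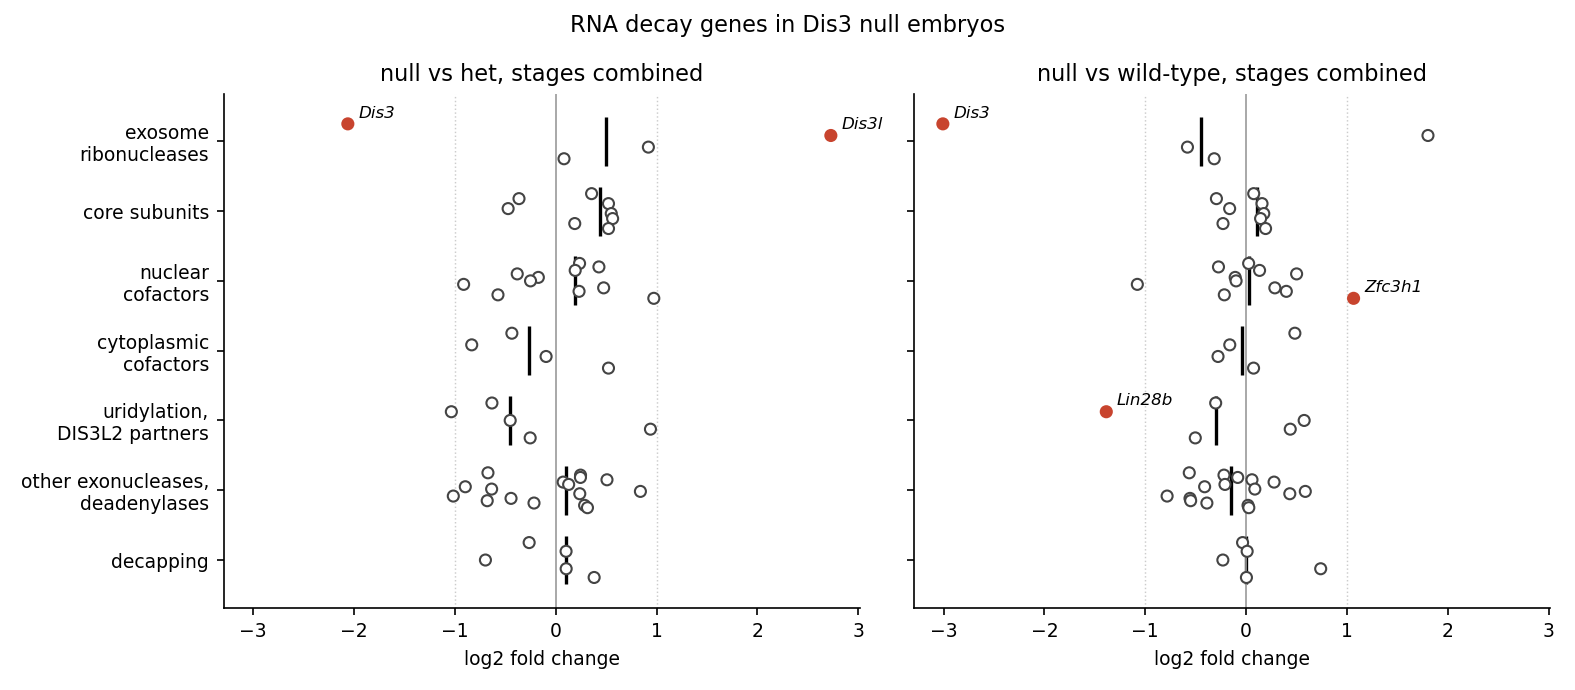
Log2 fold changes of the 4 ribonuclease genes and of 49 tested genes in 6 lists of RNA decay factors, in null against het and null against wild-type embryos with the stages combined. Points are genes, black ticks list medians, dotted lines the fold threshold, and red points called genes; in null against het embryos *Dis3* and *Dis3l* are the called genes, and in null against wild-type embryos *Dis3*, *Zfc3h1* and *Lin28b*, of which *Zfc3h1* was not called without the library labelled E2.5 WT replicate 6.

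Measures of the libraries that move with the genotype were as follows. The libraries held 1690192 to 14015980 counts on genes (median 8030848), and the null libraries 1690192 to 9993650. Reads not wholly within annotated exons were 32.3% to 43.9% in null, 21.2% to 27.9% in het and 21% to 33.4% in wild-type embryos. All 12 morula markers, with *Pou5f1* and *Cdx2* among them, were detected in each genotype, with summed levels of 2292 to 3677 CPM in null, 2424 to 3771 in het and 1894 to 4511 in wild-type embryos. Most of that sum was *Pou5f1*, *Klf5*, *Dppa4* and *Sall4*, and single markers moved. In null against het embryos, *Gata3* and *Krt18*, which encode a transcription factor and a keratin of trophectoderm, were called lower (log2 fold changes -2.12 and -2.95, edgeR adjusted p = 0.00942 and 0.0352). These were 2 of the 12, with a background of 5.73% of 13415 genes in either direction. The median of the 12 was -0.68 with 3 positive, beside 0.02 over all genes. Against wild-type embryos the median of the 12 was -0.066. The 9 oocyte genes summed to 33.9 to 138, 23 to 89.1 and 15.4 to 114 CPM, and of the 8 tested 6 were positive in null against het embryos with a median of 1.05 (edgeR adjusted p from 0.162 to 0.887). Their median was 0.16 against wild-type embryos. Of 9 markers of cumulus and granulosa cells, 6 had counts in some null embryo, 2 in het and 5 in wild-type embryos. Their sum was 20.7 to 68.8 CPM in null, 5.65 to 33.9 in het and 1.47 to 33.0 in wild-type embryos, most of it *Amhr2*, while *Ptx3* and *Inhba* were at 0 in every embryo. Of 5 blood and stromal markers, 3 had counts in each genotype, with sums of 6.46 to 40.0, 10.2 to 28.3 and 12.3 to 65.6 CPM. The part of these measures in the *Dis3l* result was not tested.

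The genes most like each member over the 23 embryos were found by Pearson's r of log2(CPM + 1). For *Dis3* these were *Azi2* (r = 0.90), *Map2k4* (0.84) and *Rdx* (0.80), which became 0.88, 0.69 and 0.58 when the 2 embryos farthest from the median level of the member were left out. For *Dis3l* they were the noncoding *Gm39157* (0.83), *Papolb* (0.82), which encodes a poly(A) polymerase, and *Slc35e3* (0.79), with r from 0.72 to 0.78 without such embryos. *Dis3l2* was most like *Ptpn4* (0.78), *2610306M01Rik* (0.74) and *Rtraf* (0.65), with 0.79, 0.68 and 0.63 without them. *Exosc10* was most like *Mep1b* (0.68), *Wdr36* (0.68) and *Npc1l1* (0.67), and these fell to 0.54, 0.44 and 0.51. These values describe likeness only, since the 23 points share genotype and stage, and part of each r is the difference between genotypes. Within wild-type embryos *Dis3* and *Dis3l* had r = -0.76 (n = 9), which fell to -0.19 (n = 8) without the library labelled E2.5 WT replicate 6, and within null embryos r was -0.36 (n = 7).

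The promoters of the 4 genes carried POU6F1 peaks in mESCs. POU6F1 is a POU-homeodomain transcription factor, and it was expressed from a transfected *Pou6f1-mCherry* construct and precipitated with an antibody to mCherry. Each of 2 replicates was compared with an IgG precipitation and with cells that expressed mCherry alone. This gave 4 peak lists, of 82694 and 31348 peaks in replicate 1 and 24524 and 3630 in replicate 2. The labels name only 1 IgG and 1 mCherry-only precipitation, so the 4 lists are not independent comparisons. In replicate 1, all 4 genes had a peak within 1 kb of a transcription start site against either control, where 82.9% and 76.7% of 13407 tested genes had one. In replicate 2 against IgG, *Dis3*, *Dis3l* and *Exosc10* had a peak and *Dis3l2* had none (66.7% of tested genes). Against mCherry alone in replicate 2 none of the 4 had a peak (24% of tested genes). A peak at these promoters was thus shared with most genes expressed in the embryos.

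Peak height differed between the members. Against IgG in replicate 1, the fold enrichment was 14.8 at *Dis3* and 14.3 at *Exosc10*, near the median of 14.1 over 11120 genes with a peak, and 8.04 at *Dis3l2* and 6.85 at *Dis3l*, the latter above 9.26% of those genes. Against mCherry alone it was 6.92 at *Dis3*, 6.70 at *Dis3l2*, 5.89 at *Exosc10* and 5.35 at *Dis3l*, all below the median of 9.16. In replicate 2 against IgG it was 8.11 at *Exosc10*, 7.05 at *Dis3* and 5.46 at *Dis3l*, with a median of 6.55. *Dis3l* had the lowest enrichment of the 4 members in both lists of replicate 1, and of the 3 members with a peak in replicate 2 against IgG. It was called higher in null than in het embryos with the stages merged, a call that depended on the processing. A link between peak height and level was not tested.

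One promoter of each gene is shown because a replicate 1 summit lies inside it. Each runs from 250 bases before to 50 bases after a RefSeq start (GRCm38.p6), on the gene's strand, and capitals mark the homeodomain core TAAT. They are chr14:99099721-99100020 on the minus strand for *Dis3*, chr9:64340724-64341023 on the minus strand for *Dis3l*, chr1:86703554-86703853 on the plus strand for *Dis3l2* and chr4:148558169-148558468 on the plus strand for *Exosc10*.

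Dis3 promoter: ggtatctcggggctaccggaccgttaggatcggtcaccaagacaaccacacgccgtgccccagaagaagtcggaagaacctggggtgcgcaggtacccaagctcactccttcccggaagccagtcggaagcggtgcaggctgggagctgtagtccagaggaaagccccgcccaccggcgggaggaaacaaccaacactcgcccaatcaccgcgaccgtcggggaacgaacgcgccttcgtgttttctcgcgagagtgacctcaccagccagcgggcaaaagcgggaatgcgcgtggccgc
Dis3l promoter: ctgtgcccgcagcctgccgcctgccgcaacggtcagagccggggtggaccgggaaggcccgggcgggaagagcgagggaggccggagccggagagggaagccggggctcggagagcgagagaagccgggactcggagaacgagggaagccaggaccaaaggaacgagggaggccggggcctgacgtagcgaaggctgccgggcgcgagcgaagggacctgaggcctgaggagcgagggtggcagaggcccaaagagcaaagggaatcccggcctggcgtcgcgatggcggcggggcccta
Dis3l2 promoter: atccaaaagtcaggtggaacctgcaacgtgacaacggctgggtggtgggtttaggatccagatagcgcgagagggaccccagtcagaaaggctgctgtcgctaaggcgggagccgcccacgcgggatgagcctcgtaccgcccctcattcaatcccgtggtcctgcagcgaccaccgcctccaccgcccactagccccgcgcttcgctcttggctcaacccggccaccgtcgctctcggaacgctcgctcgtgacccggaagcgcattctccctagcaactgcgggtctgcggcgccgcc
Exosc10 promoter: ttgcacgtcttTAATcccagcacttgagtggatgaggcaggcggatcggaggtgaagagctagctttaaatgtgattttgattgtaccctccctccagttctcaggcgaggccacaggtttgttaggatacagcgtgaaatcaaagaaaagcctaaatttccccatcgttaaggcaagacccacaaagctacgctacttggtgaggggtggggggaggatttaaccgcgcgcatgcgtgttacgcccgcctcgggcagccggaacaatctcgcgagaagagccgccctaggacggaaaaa

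The summits against IgG in replicate 1 lay 2 bases after the nearest annotated start at *Dis3*, and 32, 84 and 17 bases before it at *Dis3l*, *Dis3l2* and *Exosc10*. The *Dis3l* peak of replicate 2 against IgG (chr9:64341092-64341298) lay outside the window shown, with its summit 36 bases after a different start. G and C made up 64.0%, 72.0% and 65.7% of the *Dis3*, *Dis3l* and *Dis3l2* promoters, above the median of 52.7% over 32851 promoters, and 53.0% of the *Exosc10* promoter, near that median. TAAT was searched on both strands (ATTA on the other) and occurred once, in the *Exosc10* promoter, where 58.0% of all promoters hold it. The octamer ATGCAAAT (ATTTGCAT on the other strand) was in none of the 6 RefSeq promoters of the 4 genes and is in 1.74% of all promoters. No match says only that these letters are not in these windows.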

How the data were processed

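RNA-seq of 23 single embryos and ChIP-seq peak lists of mESCs were used. The authors used cutadapt 3.4 for trimming, STAR 2.7.8a for alignment (GRCm38) and HTSeq 0.11.4 for counting (intersection-strict, no strand), and deposited raw counts per gene. For the ChIP-seq, the authors aligned reads with Bowtie2 2.4.4 and called peaks per replicate with MACS2 2.2.7.1. The deposited lists give a score, a ratio (fold enrichment) and −log10 p and q values, all computed by the authors' peak caller, and no depth.

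The test was that of edgeR 4.0.16 under R 4.3.3 (quasi-likelihood, TMM, filterByExpr, Benjamini-Hochberg over all genes tested), with the 3 genotypes in 1 fit, stages merged or each stage alone. Library sizes left out 5 summary lines and 92 ERCC spike-ins. Levels (pseudocount 1 CPM) and within-embryo ratios (pseudocount 0.5 counts) were tested by two-sided exact permutation over embryos, and ratios were adjusted over 30 tests. Intervals and limits cover counting error or the spread of embryos only, as stated. The 38 pairs of libraries of 1 group differed by more than sampling noise (chi-square per gene 23.4 to 184). The fits were tested on simulated data with 200 genes changed. Of genes changed 4-fold, 56.5% were recovered in null against het embryos, 9.5% at E2.5, 25.0% at E2.75 and 4.0% in the stage difference. At 16-fold the shares were 92.5%, 67.5%, 71.0% and 47.5%. A missing call, above all within a stage or between stages, thus does not show that a gene was unchanged. The alternatives were DESeq2 1.42.0, RLE and ERCC scaling, no filter, only the 2 groups compared, stage as a covariate, the replicate number as a block, each embryo left out, and libraries under 2000000 counts left out.

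Named were the 4 genes, genes overlapping them, list genes called in null against het or wild-type embryos, the 9 core subunits as a group, and the 3 genes most like each member. *Tut4*, *Skiv2l*, *Ttc37*, *Wdr61*, *Tipin* and the marker genes were named after their values were seen. Members and lists were chosen with earlier results of these data known. Promoters came from RefSeq (GRCm38.p6, 6 promoters for the 4 genes). Protein sequences and ChIP input samples were not used here.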

Additional observations from a re-analysis of the deposited data

Results flagged for a closer look

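One library stood apart, in *Dis3l*. The library labelled E2.5 WT replicate 6 had 37.2 CPM, where the other wild-type embryos of both stages had 0.556 to 4.83 CPM. Its gap to the nearest of the others was 88.3% of the whole range, both among the 6 wild-type embryos of E2.5 and among all 9 wild-type embryos, above Dixon's 95% critical values of 0.625 and 0.493. In all, 24 groups of values were examined in this way, of which chance flags about 1 in 20. The same library had *Dis3* at 18.0 CPM, *Dis3l2* at 0 counts and *Exosc10* at 117 CPM.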

How the results depend on the processing

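*Dis3* stayed called in null against het and null against wild-type embryos under all 8 alternatives that use all embryos or drop shallow libraries (edgeR or DESeq2 adjusted p up to 0.0472 and 0.00780). *Dis3l* in null against het embryos stayed called under 6 of 8; the call was lost with ERCC scaling (log2 fold change 1.37) and with stage as a covariate (1.73), and the cause was not tested. With 1 embryo left out, its fold change ran from 2.25 to 2.95 and the call was lost in 10 of 23 cases. Of 292 alternative fold changes of the members, 257 kept their direction and call.

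Same-numbered embryos did not deviate together (correlations from -0.09 to 0.08 at E2.5 and from -0.11 to 0.06 at E2.75), so the numbers only name embryos. With the replicate block, *Dis3l* in null against wild-type embryos was 3.56 (4.33 at E2.5) and was called. No other embryo has replicate number 6, so the block takes the library labelled E2.5 WT replicate 6 out of the comparison. The *Dis3l* values against wild-type embryos with the block are thus no support beyond those without that library. *Dis3* was not called with the block in null against wild-type embryos at E2.5 (-4.37) or null against het embryos at E2.75 (-1.48). *Dis3l* in het against wild-type embryos changed sign (0.88), as did *Dis3l2* (0.77) and *Exosc10* (-0.028) in null against wild-type embryos at E2.5. The sign also changed for *Exosc10* in null against het embryos at E2.75 (-0.12) and *Dis3* between wild-type stages (-0.10). So did that of the stage differences of *Exosc10* (-0.11, het), *Dis3l* (-1.83, wild-type) and *Dis3l2* (0.49, wild-type). The block left 0 calls in null against het and 41 in null against wild-type embryos at E2.5, 93 and 206 at E2.75, 1 and 2 in the stage differences and 913 between wild-type stages.

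ERCC scaling, which moved the median of all genes to -1.08 (null against het), -0.37 (null against wild-type) and 0.71 (het against wild-type), turned *Dis3l2* (-0.34, E2.5 -0.10, E2.75 -0.047) and *Exosc10* (-1.11, E2.75 -0.67) in null against het embryos, *Exosc10* in null against wild-type embryos at E2.5 (-0.37), *Dis3l* (0.17) and *Exosc10* (0.26) in het against wild-type embryos and the stage difference of *Dis3l2* (0.053). It called *Dis3* (-4.10) and *Exosc10* (-1.61) in null against het embryos at E2.5 and *Exosc10* between wild-type stages (1.78), and lost *Dis3* in null against wild-type embryos at E2.5 (-3.76). In the permutation tests it turned *Dis3* (0.051) and *Exosc10* (0.48) in het against wild-type and *Exosc10* (-0.98) in null against het embryos. Genes called were then 4776 in null against het embryos, 1955 at E2.5 and 2494 at E2.75, 91 in null against wild-type embryos at E2.5 and 3277 between wild-type stages. Called list genes in null against het embryos became 2 core subunits, 5 nuclear cofactors, 4 of uridylation, 8 other exonucleases and 2 of decapping. The lists hold 49 tested genes. The background on this scale was 4776 called genes of 13415, 4487 of them lower, so these counts are no result about the lists. In null against wild-type embryos 0 nuclear cofactors were called, beside 786 of 13415 genes.

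The other values that changed were these. Without the filter, *Exosc10* was -0.048 in null against het and -0.0068 in null against wild-type embryos at E2.5. With only the 2 groups fitted, *Dis3* in null against wild-type embryos at E2.5 (-3.39) was not called. Without libraries under 2000000 counts, *Dis3* (-2.07) in null against het embryos at E2.75 was not called and *Exosc10* was -0.14. The stage difference of *Dis3l2* against wild-type was 0.035 in DESeq2 and 0.029 with RLE. *Dis3l* in het against wild-type embryos was 0.19 with stage as a covariate and -0.086 in the permutation test with 5 times the pseudocount, and the ratio of *Dis3l* to *Dis3l2* in null against het embryos was -0.46 within stages. DESeq2 called 1784, 1663 and 65 genes in null against het, null against wild-type and het against wild-type embryos, 598 and 1260 at E2.5 and 1678 and 1994 at E2.75 (null against het, then wild-type), and 81 and 344 in the stage differences. Without the filter the counts were 1808 and 3409 with stages merged, 33 and 539 at E2.5, 1321 and 1122 at E2.75, 77 and 221 in the stage differences and 2104 between wild-type stages. With RLE, null against het embryos at E2.5 gave 0 calls, and 1 with only the 2 groups fitted, which gave 897 between wild-type stages. Without libraries under 2000000 counts, 142 and 148 genes were called at E2.75 and 1 in the stage difference of null against het.

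With 1 embryo left out, ranges of fold changes that changed a call or sign were -0.055 to 0.23 for *Exosc10* in null against het embryos (E2.5 -0.65 to 0.41, E2.75 -0.25 to 0.28), 1.33 to 3.37 for *Dis3l* in null against wild-type embryos (E2.5 1.48 to 3.80), -1.15 to 0.64 for *Dis3l* in het against wild-type embryos, -3.96 to -2.98 for *Dis3* and -0.13 to 0.19 for *Exosc10* in null against wild-type embryos at E2.5, -1.87 to -1.28 for *Dis3* in null against het and -1.07 to 0.18 for *Dis3l2* in null against wild-type embryos at E2.75. The call of *Dis3* in null against wild-type embryos at E2.5 was lost in 11 of 12 cases (edgeR adjusted p up to 0.199) and that in null against het embryos at E2.75 in 2 of 11. Stage differences ran from -6.85 to 0.17 (*Dis3l2*) and -0.34 to 0.65 (*Exosc10*) for null against het and from -1.80 to 0.70 (*Dis3l*) and -0.51 to 0.83 (*Dis3l2*) for null against wild-type embryos, and wild-type stages from -0.068 to 0.37 (*Dis3*) and -0.73 to 0.61 (*Dis3l2*). Permutation differences ran from -0.99 to -0.62 (*Dis3*) and -0.15 to 0.43 (*Dis3l*) in het against wild-type, 0.66 to 1.14 (*Dis3l2*) and -0.018 to 0.28 (*Exosc10*) in null against het, and -0.41 to 0.15 (*Dis3l2*) and -0.32 to 0.0028 (*Exosc10*) in null against wild-type embryos. Log2 ratios in het against wild-type embryos ran from 0.51 to 1.57 (*Dis3l* to *Dis3*), 0.28 to 0.71 (*Exosc10* to *Dis3*), 1.37 to 3.25 (*Dis3l* to *Dis3l2*), -0.76 to -0.35 (*Dis3* to core) and -0.27 to 0.17 (*Exosc10* to core). In null against wild-type embryos they ran from 1.54 to 3.46 (*Dis3l* to *Dis3l2*), -0.20 to 1.12 (*Dis3l2* to *Exosc10*), -0.40 to 0.98 (*Dis3l2* to core) and -0.42 to 0.016 (*Exosc10* to core), and in null against het embryos from -0.56 to 0.94 (*Dis3l* to *Dis3l2*). Calls over all genes ran from 0 to 2 in het against wild-type, 0 to 5 (null against het) and 52 to 217 (null against wild-type) at E2.5, 292 to 776 and 222 to 827 at E2.75, 0 to 1 and 0 to 5 in the stage differences, and 745 to 1530 between wild-type stages.

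Limits lie in depth and group size. *Dis3l2* and, at E2.75, *Dis3l* rest on few reads, and 2 het embryos at E2.5 left wide intervals. Peaks within 250 bp or 5 kb, with a −log10 q of at least 5, or with 0.5 of the shorter peak covered, gave the same number of lists for each gene.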
